A study of Mus musculus with 12 samples.

Results

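The genes of the oligodendrocyte lineage and of myelin were followed through RNA from mouse hippocampus in 12 libraries. They are 34 genes chosen by symbol from a list written for this purpose, and all 34 were found among the 54427 genes of the count table. Of these, 27 mark mature oligodendrocytes, their myelin or the regulators of the lineage, and 7 (Pdgfra, Cspg4, Neu4, Bmp4, Bcas1, Enpp6 and Nkx2-2) mark precursors and newly formed cells. All 34 had enough counts to be among the 17227 genes tested. The choice went by symbol and applied no cutoff on a measured value, but it was made with earlier results of these data known.

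Oligodendrocytes wrap axons of the central nervous system in compacted sheets of membrane, the myelin sheath, which insulates the axon and feeds it. They arise from precursor cells that divide throughout life, stop dividing under the control of transcription factors such as Olig2, Sox10 and Myrf, and then switch on structural proteins of myelin and the enzymes that make its galactolipids. In the hippocampus myelin lies mainly in the fibre tracts above and around the neuron layers.

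The 4 groups held 3 libraries each: 5xFAD;Ulk1OV, which carries both labels, 5xFAD, Ulk1OV and WT. 5xFAD mice carry mutant human APP under a neuronal Thy1 promoter and form amyloid plaques. Ulk1OV stands for overexpression of ULK1, the kinase that starts autophagy. The sources used here do not give its construct, the cells that carry it or the age of the animals, and they name no other treatment. Whether replicates are separate animals is not stated, and p-values therefore reflect only how far these libraries differ, which may be a technical spread. The values were read counts per gene, 16149992 to 18547132 per library, printed as CPM, counts scaled to the library's normalised total. Markers of hippocampal neurons were present in every library, with 2681 to 4253 CPM of Camk2a and 35.3 to 118.9 CPM of Prox1, a gene of dentate granule cells.

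One library, labelled 5xFAD;Ulk1OV replicate 3, did not match its label in mouse App and Prnp, which reads of the transgene might reach. Its App level was 1310 CPM and its Prnp level 954 CPM. In the remaining libraries labelled 5xFAD (5 in number) App ran from 2201 to 2667 CPM and Prnp from 2067 to 2510 CPM, and in the 6 not so labelled from 1241 to 1493 CPM and from 900.1 to 1119 CPM. Ulk1 itself lay between 84.6 and 102 CPM in the 6 libraries with the Ulk1OV label and between 63.5 and 86.3 CPM in the other 6. For this reason fold changes of the members with the smallest p that use the double-labelled group are also given without this library.

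The promoters of 4 structural genes of myelin are shown because each holds a motif of Myrf, the transcription factor that switches on myelin genes. Sequences are RefSeq windows on GRCm38.p6, from 250 bases before the start of a transcript to 50 bases after it, and 26 of the 34 members had at least 1 window (36 windows in all). Each is written 5′ to 3′ on the strand of the gene. Capitals mark the Myrf motifs CTGGCAC and CTGGTAC, the SOX motif ACAAAG and the E box CAGCTG, bound by Olig2 and related factors, searched on both strands. The windows are chr7:30914814-30915113 (minus strand) for Mag, chr11:100574689-100574988 (plus strand) for Cnp, chr17:37023349-37023648 (minus strand) for Mog and chr19:41077064-41077363 (minus strand) for Opalin.
Mag: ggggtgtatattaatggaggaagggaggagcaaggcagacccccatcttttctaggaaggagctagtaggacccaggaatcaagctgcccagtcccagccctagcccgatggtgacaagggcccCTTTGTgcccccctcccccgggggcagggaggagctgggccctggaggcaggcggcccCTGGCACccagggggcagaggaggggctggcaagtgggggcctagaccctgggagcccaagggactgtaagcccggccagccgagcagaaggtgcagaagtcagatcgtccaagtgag
Cnp: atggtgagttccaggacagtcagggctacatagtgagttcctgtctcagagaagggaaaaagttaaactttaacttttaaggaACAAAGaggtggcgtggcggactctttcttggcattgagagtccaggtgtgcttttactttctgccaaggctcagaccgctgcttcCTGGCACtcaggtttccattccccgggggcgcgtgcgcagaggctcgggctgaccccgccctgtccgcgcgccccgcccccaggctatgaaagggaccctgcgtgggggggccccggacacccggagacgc
Mog: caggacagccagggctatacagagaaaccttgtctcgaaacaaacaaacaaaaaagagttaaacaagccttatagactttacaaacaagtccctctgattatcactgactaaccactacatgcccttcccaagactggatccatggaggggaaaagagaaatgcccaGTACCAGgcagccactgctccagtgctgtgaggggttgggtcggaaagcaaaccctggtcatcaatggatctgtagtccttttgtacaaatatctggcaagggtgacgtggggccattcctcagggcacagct
Opalin: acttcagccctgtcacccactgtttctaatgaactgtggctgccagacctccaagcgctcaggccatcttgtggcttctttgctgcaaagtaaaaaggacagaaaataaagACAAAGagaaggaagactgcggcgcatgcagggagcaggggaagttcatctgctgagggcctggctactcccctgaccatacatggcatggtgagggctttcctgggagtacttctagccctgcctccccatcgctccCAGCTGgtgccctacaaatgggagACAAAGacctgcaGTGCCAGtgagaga

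In Mag, CTGGCAC starts 68 bases before the transcript start, and ACAAAG lies 126 bases before it on the opposite strand. Cnp holds CTGGCAC 81 bases and ACAAAG 167 bases before its start. Mog has CTGGTAC 83 bases before its start, on the opposite strand. Opalin holds ACAAAG 139 bases before and again 24 bases after its start, an E box 1 base before it, and CTGGCAC 37 bases after it on the opposite strand. No motif overlapped another in these windows. CTGGCAC was found in 4 of the 30 windows of mature members (3 genes, as overlapping Mag windows held the same site) and in 5.01% of all 32851 windows. CTGGTAC was found in 1 of 30 and 2.24%, ACAAAG in 11 of 30 (9 genes) and 18.7%, and CAGCTG in 5 of 30 (4 genes) and 16.3%. None of the 6 windows of precursor members held any of these letters on either strand. These are matches of letters and not measured binding sites.

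Per kilobase of exon, Mbp, whose protein compacts the myelin membrane, stood above all other members, with a mean level of 596.5 CPM per kb over the 12 libraries. Mobp, a second protein of compact myelin, followed with 252.8 CPM per kb. Plekhb1, a pleckstrin homology domain protein (198.1 CPM per kb), Mal, a raft proteolipid (157.7), Car2, a carbonic anhydrase (156.0), Cnp, the cyclic nucleotide phosphodiesterase of noncompacted myelin (154.7), and Cldn11, which seals the layers by tight junctions (147.9), came next. Among the transcription factors of the mature members Olig1 was highest per length at 93.1 CPM per kb and Myrf lowest at 9.602. Precursor genes were lower per length, from 1.26 CPM per kb for Cspg4, a surface proteoglycan, to 7.90 for Pdgfra, the receptor through which platelet-derived growth factor drives precursor division. Bcas1, which marks cells that are starting to myelinate, was the exception among them at 71.3 CPM per kb. The lowest mature member was Klk6, a secreted serine protease, at 1.52 CPM per kb, or 16 to 63 counts per library.

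**Figure D1:**
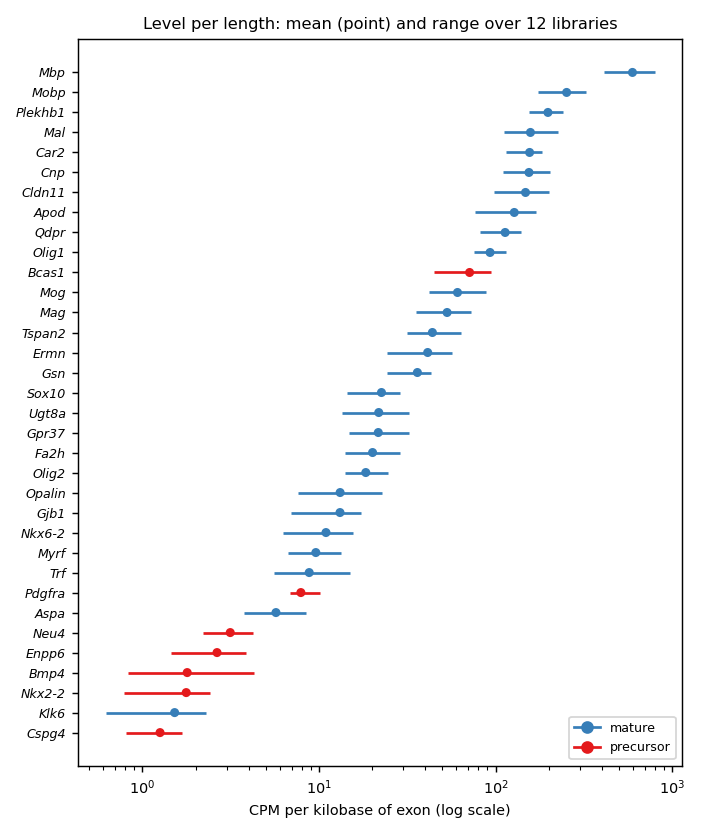
Level per length of the 34 members in CPM per kilobase of merged exon, on a log axis. The point is the mean of 12 libraries and the line runs from the lowest to the highest library, with mature members in blue and precursor members in red; levels run from 1.26 for Cspg4 to 596.5 for Mbp.

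Mature genes differed more between the libraries of a group than between group means. A mean of 3 libraries varies less than a single library in any gene, so this contrast alone does not set mature genes apart. The 27 mature members together took 9571, 11480 and 14340 CPM in 5xFAD;Ulk1OV replicates 1, 2 and 3, and 7963, 12450 and 13960 CPM in 5xFAD. They took 10690, 12600 and 11030 CPM in Ulk1OV, and 10050, 8512 and 13390 CPM in WT. All groups overlapped. The sum averaged 11800 ± 2400 CPM in 5xFAD;Ulk1OV, 11460 ± 3119 in 5xFAD, 11440 ± 1019 in Ulk1OV and 10650 ± 2494 in WT (SD, n = 3 each), so that the highest group mean was 1.11-fold the lowest, while the highest library was 1.80-fold the lowest. In bulk tissue, fewer cells of a type and less RNA per cell cannot be told apart.

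Mature genes were high or low together from one library to the next. In 5xFAD replicate 1, every one of the 27 was at its lowest of the group, and 20 were at their lowest of all 12 libraries. Among the 11 structural genes of myelin 10 were lowest of all libraries there, the exception being Tspan2, a tetraspanin. WT replicate 3 held the group's highest value of 27 of 27 mature genes and WT replicate 2 the lowest of 25. 5xFAD replicate 3 held the highest of 24, 5xFAD;Ulk1OV replicate 3 the highest of 23, and Ulk1OV replicate 2 the highest of 19. The median deviation from a gene's mean over all libraries was -0.50 on the log2 scale in 5xFAD replicate 1, 0.44 in 5xFAD replicate 3, 0.41 in WT replicate 3 and 0.27 in 5xFAD;Ulk1OV replicate 3. Mbp, the most abundant member, was highest in the same library of each group, but its order across the groups differed from that of these medians. It had 4294, 5396 and 6750 CPM in 5xFAD;Ulk1OV, 3496, 5213 and 6104 CPM in 5xFAD, 4776, 5770 and 4918 CPM in Ulk1OV, and 4458, 3549 and 5895 CPM in WT, and the 4 groups overlapped.

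**Figure D2:**
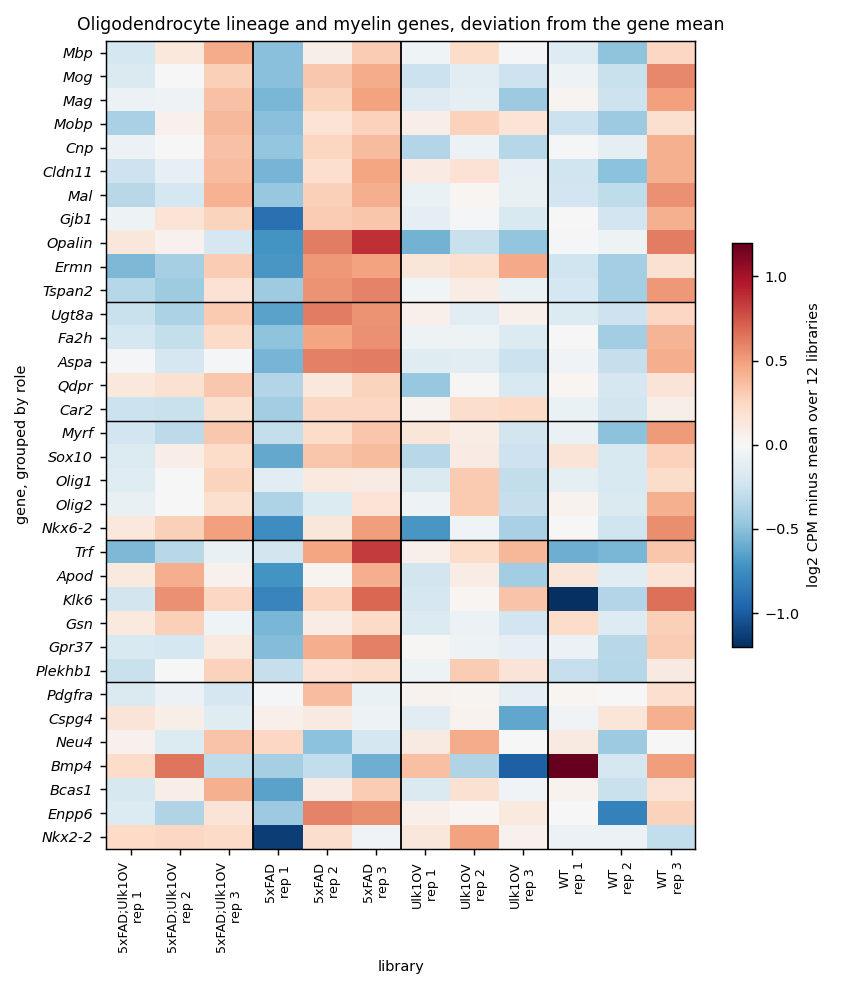
Deviation of each member from its mean over 12 libraries, in log2 CPM (red above, blue below, colours end at 1.2), with genes in rows grouped by role and libraries in columns grouped by label. Most rows of mature genes are blue in 5xFAD replicate 1 and WT replicate 2 and red in 5xFAD replicate 3 and WT replicate 3, while rows of precursor genes such as Pdgfra and Cspg4 do not share this order.

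The spread within groups was wide for mature genes. The SD of log2 CPM within groups had a median of 0.363 over the 27 mature members (0.224 for Qdpr to 0.609 for Klk6) and of 0.325 over the 7 precursor members (0.144 for Pdgfra to 0.564 for Bmp4). Over all 17227 genes tested its median was 0.198, over 12 neuron markers 0.192 and over 10 astrocyte markers 0.173. Among the 10329 genes with a mean CPM of at least 10, a level that all mature members but Klk6 reached, the median was 0.142. All 27 mature members lay above the median of all genes, and the median of the mature members stood at the 74.6th percentile of all genes. The SD within groups exceeded the SD between group means in 27 of 27 mature and 7 of 7 precursor members, as it did in 71.1% of all genes tested. The median ratio of the SD between group means to that within groups was 0.42 in mature members. It was 0.73 in precursor members and 0.74 over all genes tested. The mature members also had larger standard errors than genes in general, with a median SE of 0.23 on the log2 scale against 0.16 over all genes in 5xFAD against WT.

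Markers of other cells differed between the same libraries. The 12 neuron markers summed to 9573 to 10770 CPM in 5xFAD;Ulk1OV, 10480 to 12720 in 5xFAD, 10770 to 11560 in Ulk1OV and 9833 to 10900 in WT. Their highest sum was in 5xFAD replicate 1, where mature genes were lowest, and their lowest in 5xFAD;Ulk1OV replicate 3, where the mature sum was highest. That mature sum is weighted to Mbp (mean 5052 CPM) and Mobp (1731 CPM). By gene, 3 of the 27 mature members were highest of all 12 libraries there, against 11 in 5xFAD replicate 3 and 9 in WT replicate 3. In those 2 libraries the neuron markers summed to 10690 and 9833 CPM. The 10 astrocyte markers summed to 6712 to 8281, 6399 to 8538, 7600 to 8023 and 6668 to 7539 CPM in 5xFAD;Ulk1OV, 5xFAD, Ulk1OV and WT. The 10 microglia markers summed to 565.3 to 621.7, 542.1 to 674.5, 530.9 to 631.6 and 540.9 to 635.5 CPM in the same groups, and the 5 red cell genes to 100.1 to 161.1, 52.1 to 130.6, 54.5 to 136.0 and 94.8 to 208.5 CPM. Choroid plexus RNA differed most, with 3994 CPM of Ttr, the transthyretin gene, in Ulk1OV replicate 1 and 5949 CPM in WT replicate 3 against 5.09 to 285 CPM in the other 10 libraries. Of 7 markers of Schwann cells, the myelinating cells of peripheral nerve, Dhh had 0 to 5 counts per library and Pmp2 and Foxd3 0 to 1, while Ncmap had 3 to 14, Prx 6 to 33, Scn7a 97 to 214 and Cdh19 252 to 500. In 5xFAD replicate 1 the endothelial (78.6 CPM), mural (84.3), fibroblast (153.4) and choroid plexus sums (31.7) were also the lowest of all 12 libraries. The astrocyte sum there was the highest of all, at 8538 CPM. The microglia and red cell sums of that library, 617.6 and 80.4 CPM, were neither lowest nor highest. The part of the other cell types in the differences between libraries was not tested.

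**Figure D3:**
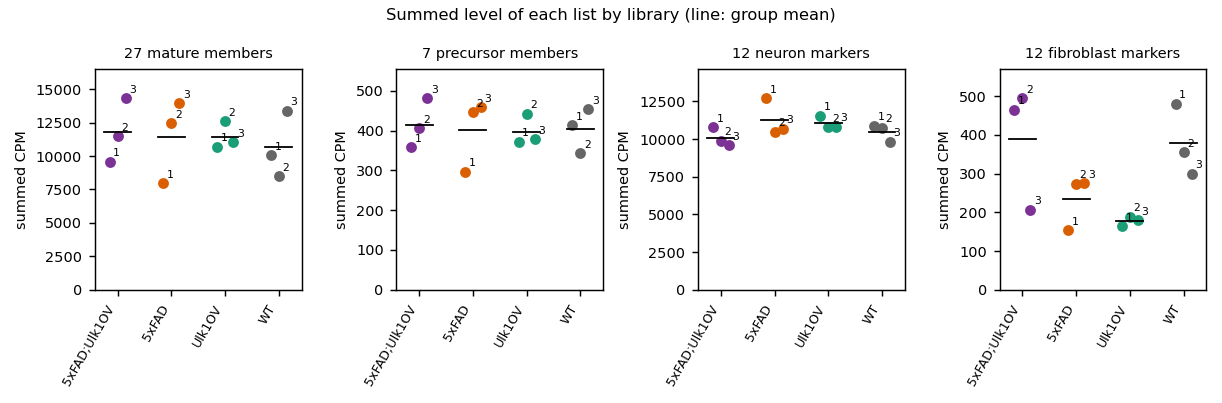
Summed CPM of 4 gene lists in each library, with axes from 0, points numbered by replicate and a line at each group mean. Mature members span 7963 to 14340 CPM with group means of 10650 to 11800, the neuron markers are highest in 5xFAD replicate 1, and the fibroblast markers have their lowest group mean in Ulk1OV.

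Precursor genes did not share one order of libraries. Summed, they took 357.5, 406.5 and 481.7 CPM in 5xFAD;Ulk1OV, 297.1, 445.5 and 458.8 CPM in 5xFAD, 372.3, 441.9 and 378.5 CPM in Ulk1OV and 413.4, 343.3 and 453.1 CPM in WT. The highest group mean was 1.04-fold the lowest. Most of this sum is Bcas1, which ran with the mature genes: it was lowest of all libraries in 5xFAD replicate 1 (170.0 CPM) and highest in 5xFAD;Ulk1OV replicate 3 (354.7 CPM). Enpp6, a choline phosphodiesterase of newly formed oligodendrocytes, had 14.6, 12.7 and 18.2 CPM in 5xFAD;Ulk1OV, 12.1, 24.8 and 24.1 CPM in 5xFAD, 17.1, 16.7 and 17.8 CPM in Ulk1OV and 16.3, 9.32 and 19.9 CPM in WT, and it too was low in 5xFAD replicate 1 and WT replicate 2. Pdgfra, by contrast, kept between 68.5 and 101.6 CPM in all 12 libraries. In 5xFAD replicate 1 only 3 of the 7 precursor members were lowest of their group. Neu4, a sialidase, was highest of its group there, at 17.0 CPM against 10.2 and 12.4 CPM in 5xFAD replicates 2 and 3.

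Between groups, edgeR (quasi-likelihood test, p adjusted over all 17227 genes by Benjamini-Hochberg) called none of the 34 members at an adjusted p under 0.05, in any of the 4 comparisons or in their interaction. DESeq2 called none in the 4 comparisons either, and 1 mature and 1 precursor member in the interaction. For 28 of the 34 members the 95% interval of the fold change crossed 0 in all 4 comparisons, the others being Trf, Nkx6-2, Qdpr, Pdgfra, Cspg4 and Bmp4. These intervals were wide, reaching as far as 1.30 from 0 on the log2 scale in mature members, so that a missed threshold does not show equal levels. With 3 libraries against 3, the smallest two-sided p of an exact permutation test is 0.1.

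**Figure D4:**
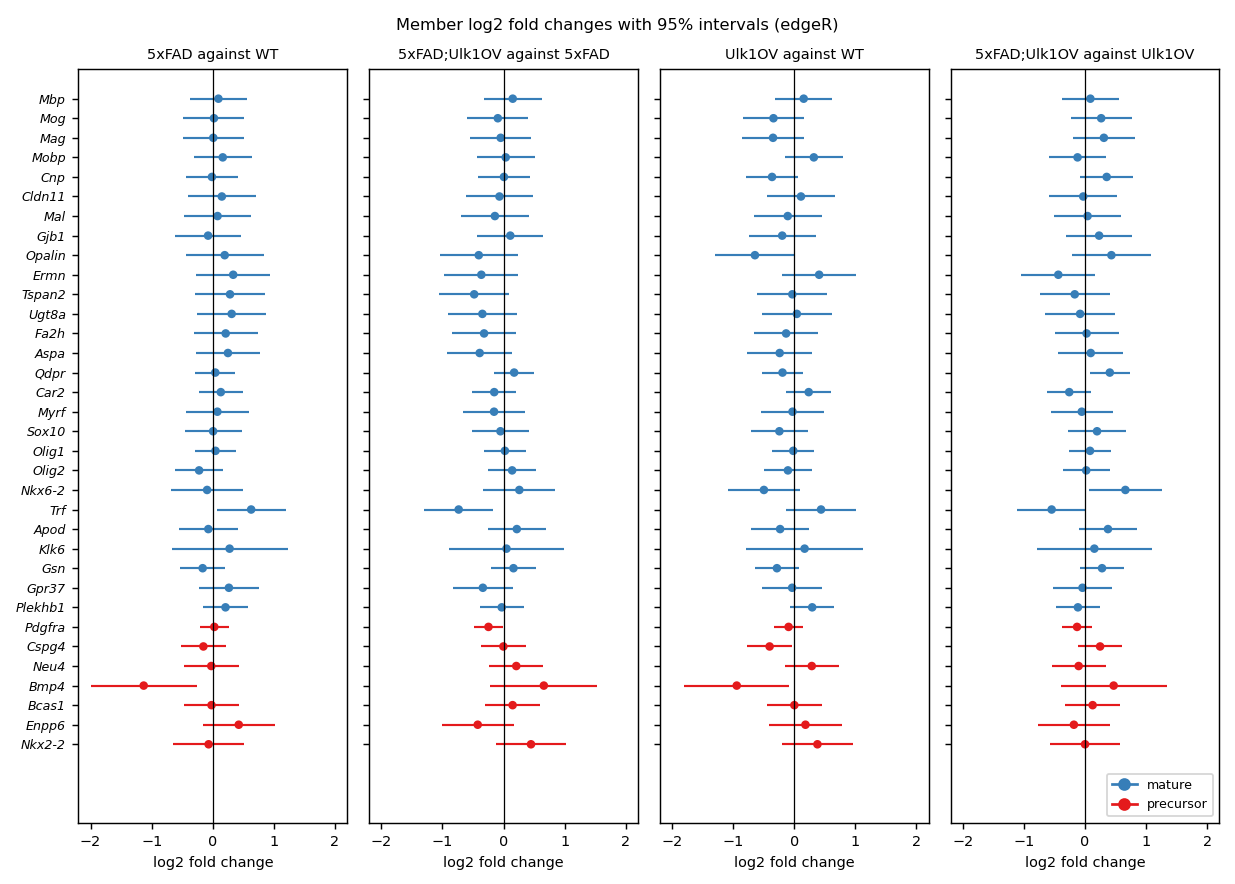
Fold changes (log2, points) with 95% intervals from edgeR for the 34 members in 4 comparisons, mature in blue and precursor in red. Nearly all intervals cross 0; Trf lies above 0 in 5xFAD against WT and below 0 in 5xFAD;Ulk1OV against 5xFAD, and Bmp4 lies below 0 in 5xFAD against WT and Ulk1OV against WT.

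In 5xFAD against WT, no member passed, and no gene of the whole table did (0% of those tested). At an unadjusted p under 0.05 there were 1 of 27 mature and 1 of 7 precursor members, where 12.4% of all genes tested lay. The groups failed to overlap in 0 mature and 1 precursor member, against 19.5% of all genes. Of the mature members 21 were higher in 5xFAD and 6 lower, with a median log2 fold change of 0.09 (all genes 0.00). That median rested on single libraries: it was 0.29 without 5xFAD replicate 1, 0.36 without WT replicate 3, -0.03 without WT replicate 2 and -0.08 without 5xFAD replicate 3. All 5 of the lipid and metabolic enzymes had a fold change above 0, from 0.04 for Qdpr to 0.31 for Ugt8a, which makes galactosylceramide, with edgeR adjusted p-values from 0.670 to 0.943. The precursor members had a median of -0.03, which was 0.07 without 5xFAD replicate 1.

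Trf, the iron carrier transferrin that oligodendrocytes make for themselves and their neighbours, had the smallest p of the mature members. Its level was 19.2, 22.1 and 26.2 CPM in 5xFAD;Ulk1OV, 24.0, 38.6 and 49.7 CPM in 5xFAD, 29.1, 32.6 and 36.8 CPM in Ulk1OV, and 18.6, 19.01 and 35.1 CPM in WT. The 5xFAD and WT values overlapped through the high WT replicate 3 and the low 5xFAD replicate 1, the same libraries that stood apart in all mature genes. The log2 fold change of 5xFAD against WT was 0.63 ± 0.26 (SE; edgeR adjusted p = 0.354). As single libraries were left out it ranged from 0.37 without 5xFAD replicate 3 to 0.99 without WT replicate 3. Choroid plexus also makes transferrin. Of the libraries high in Ttr, WT replicate 3 had the highest Trf of its group and Ulk1OV replicate 1 the lowest of its own. The part of choroid plexus in the Trf values was not tested.

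Olig2, which specifies the lineage, and Plekhb1 came next. Olig2 had 35.7, 40.9 and 51.7 CPM in 5xFAD and 47.4, 40.8 and 61.9 CPM in WT, overlapping, with a log2 fold change of -0.23 ± 0.18 (edgeR adjusted p = 0.641). Plekhb1 had 599.7, 820.4 and 839.1 CPM in 5xFAD and 601.7, 571.6 and 784.1 CPM in WT, and its log2 fold change was 0.21 ± 0.17 (edgeR adjusted p = 0.649). Among precursor members, Bmp4, a secreted ligand made by committed precursors that holds back their maturation, had 2.77, 2.98 and 2.43 CPM in 5xFAD and 9.64, 3.16 and 5.16 CPM in WT. All 5xFAD values were below all WT values, and WT replicate 1 stood far above the rest. The log2 fold change of Bmp4 was -1.13 ± 0.40 (edgeR adjusted p = 0.292), and -0.61 without WT replicate 1 (adjusted p = 0.703). Enpp6 had a log2 fold change of 0.42 ± 0.27 (edgeR adjusted p = 0.551). These values moved with single libraries: Olig2 was at -0.38 without 5xFAD replicate 3 and -0.04 without WT replicate 3, Plekhb1 at 0.12 without WT replicate 2 and 0.36 without WT replicate 3, and Enpp6 at 0.17 without WT replicate 2 and 0.68 without 5xFAD replicate 1. After a correction for GC content and length Olig2 stood at -0.05.

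Bmp4 is also made by cells of the meninges and vessels, and fibroblast markers differed between the same groups. The 12 fibroblast markers summed to 464.8, 495.1 and 206.3 CPM in 5xFAD;Ulk1OV, 153.4, 274.4 and 274.6 CPM in 5xFAD, 164.6, 188.7 and 179.1 CPM in Ulk1OV and 480.8, 354.6 and 299.3 CPM in WT. The library with the most Bmp4 of its group had the highest fibroblast sum of the group in 5xFAD;Ulk1OV (replicate 2) and WT (replicate 1), the second highest, by a margin of under 1 CPM, in 5xFAD (replicate 2) and the lowest in Ulk1OV (replicate 1). In 5xFAD against WT, 0 of the 12 fibroblast markers passed the test and their median log2 fold change was -0.97. The part of these cells in the Bmp4 values was not tested.

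In 5xFAD;Ulk1OV against 5xFAD, 0 of 27 mature and 0 of 7 precursor members passed, where 0.0464% of all genes did, 8 in number. That count over all genes ranged from 0 to 260 as single libraries were left out, being 260 without 5xFAD replicate 1, 170 without Ulk1OV replicate 2, 77 without Ulk1OV replicate 1, 12 without 5xFAD;Ulk1OV replicate 3 and 0 without any other. At an unadjusted p under 0.05 there were 1 mature and 1 precursor member (17.4% of all genes), and the groups did not overlap in 0 mature and 1 precursor member (22.2% of all genes). Mature members were higher in 11 and lower in 16, with a median log2 fold change of -0.05, and -0.18 without 5xFAD;Ulk1OV replicate 3. Without 5xFAD replicate 1 the median was -0.30 and without 5xFAD replicate 3 it was 0.08. The precursor median was 0.15, and 0.08 without 5xFAD;Ulk1OV replicate 3.

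Trf again had the smallest p, with a log2 fold change of -0.74 ± 0.26 (edgeR adjusted p = 0.183), and of -0.84 without 5xFAD;Ulk1OV replicate 3 (adjusted p = 0.191). The Trf values of the groups overlapped only through 5xFAD replicate 1. Tspan2 had 158.9, 149.9 and 227.9 CPM in 5xFAD;Ulk1OV and 150.5, 293.2 and 305.2 CPM in 5xFAD, a log2 fold change of -0.48 ± 0.27 (edgeR adjusted p = 0.370). Aspa, which breaks down N-acetylaspartate to supply acetate for myelin lipids, had 32.4, 28.7 and 32.6 CPM in 5xFAD;Ulk1OV and 22.3, 50.1 and 50.5 CPM in 5xFAD, a log2 fold change of -0.39 ± 0.25 (edgeR adjusted p = 0.434). In both genes the double-labelled libraries lay between the low 5xFAD replicate 1 and the other 5xFAD libraries, apart from 5xFAD;Ulk1OV replicate 2 in Tspan2, which was lowest of all. Pdgfra had 70.0, 75.1 and 68.5 CPM in 5xFAD;Ulk1OV and 77.5, 101.6 and 74.5 CPM in 5xFAD; the groups overlapped narrowly, and the log2 fold change was -0.25 ± 0.11 (edgeR adjusted p = 0.269), or -0.20 without 5xFAD;Ulk1OV replicate 3. Nkx2-2, a transcription factor of the step from precursor to oligodendrocyte, had 5.81, 5.86 and 5.79 CPM in 5xFAD;Ulk1OV and 2.26, 5.73 and 4.80 CPM in 5xFAD. All double-labelled values were above all 5xFAD values, by a margin of under 0.1 CPM over 5xFAD replicate 2, and the log2 fold change was 0.45 ± 0.27 (edgeR adjusted p = 0.405). Without 5xFAD;Ulk1OV replicate 3 the log2 fold changes were -0.68 for Tspan2, -0.41 for Aspa and 0.47 for Nkx2-2, none of them past the threshold. As single libraries were left out, Trf ranged from -0.96 to -0.48, Tspan2 from -0.73 to -0.31, Aspa from -0.67 to -0.21, Nkx2-2 from 0.16 to 0.72 and Pdgfra from -0.33 to -0.10, the value nearest 0 being without 5xFAD replicate 3 for the first 3 genes, without 5xFAD replicate 1 for Nkx2-2 and without 5xFAD replicate 2 for Pdgfra.

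In Ulk1OV against WT, 0 of 27 mature and 0 of 7 precursor members passed, where 5.17% of all genes did (891 genes). At an unadjusted p under 0.05 there were 0 mature and 2 precursor members (24.1% of all genes), and the groups did not overlap in 1 mature and 1 precursor member (29.5% of all genes). Mature members were higher in 9 and lower in 18, with a median log2 fold change of -0.10. That value was 0.11 without WT replicate 3 and -0.24 without WT replicate 2. All 5 transcription factors among the mature members had a fold change below 0, from -0.50 for Nkx6-2 to -0.02 for Olig1, with edgeR adjusted p-values from 0.291 to 0.961. Nkx2-2, the transcription factor among the precursor members, went the other way, at 0.38 ± 0.27 (edgeR adjusted p = 0.413). Its Ulk1OV values (5.43, 6.90 and 5.12 CPM) all lay above its WT values (4.70, 4.69 and 4.03 CPM). The precursor median was 0.00.

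Opalin, a transmembrane glycoprotein of myelin made by mature oligodendrocytes, had the smallest p of the mature members. It had 40.4, 38.2 and 31.8 CPM in 5xFAD;Ulk1OV, 22.4, 56.3 and 67.5 CPM in 5xFAD, 24.8, 30.5 and 26.5 CPM in Ulk1OV and 36.3, 35.3 and 56.3 CPM in WT. Every Ulk1OV value was below every WT value. The log2 fold change was -0.64 ± 0.30 (edgeR adjusted p = 0.210), from -0.76 to -0.39 as single libraries were left out (-0.39 without WT replicate 3), and it passed the test without 5xFAD replicate 1 (adjusted p = 0.0394). Relative to Mobp, the CPM of Opalin was 3.11%, 2.17% and 1.43% in 5xFAD;Ulk1OV, 1.87%, 2.96% and 3.29% in 5xFAD, 1.39%, 1.49% and 1.39% in Ulk1OV, against 2.56%, 2.82% and 2.91% in WT. The Ulk1OV ratios and that of 5xFAD;Ulk1OV replicate 3 were the lowest of the 12. Relative to Mog the CPM of Opalin was 44.9%, 37.6% and 25.7% in 5xFAD;Ulk1OV, 31.2%, 44.5% and 48.9% in 5xFAD, 29.3%, 33.01% and 31.01% in Ulk1OV, against 37.5%, 42.0% and 37.2% in WT, so that 5xFAD replicate 1 lay among the Ulk1OV ratios. Mobp had a log2 fold change of 0.32 in Ulk1OV against WT and Mog of -0.34. These ratios were chosen after their values were seen and were not tested.

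Cnp had 433.3, 526.2 and 436.2 CPM in Ulk1OV and 545.5, 511.0 and 739.9 CPM in WT, with a log2 fold change of -0.36 ± 0.20 (edgeR adjusted p = 0.285). Nkx6-2, a homeobox factor of maturing oligodendrocytes, had 22.0, 24.5 and 28.2 CPM in 5xFAD;Ulk1OV, 11.98, 22.0 and 28.4 CPM in 5xFAD, 12.4, 19.5 and 15.4 CPM in Ulk1OV and 20.1, 17.0 and 29.6 CPM in WT. Ulk1OV replicate 2 overlapped with WT, and the log2 fold change of Nkx6-2 in Ulk1OV against WT was -0.50 ± 0.28 (edgeR adjusted p = 0.291). Cspg4 had 16.5, 15.6 and 13.4 CPM in 5xFAD;Ulk1OV, 15.4, 16 and 14.2 CPM in 5xFAD, 13.5, 15.3 and 9.64 CPM in Ulk1OV and 14.4, 16.4 and 19.96 CPM in WT. Its Ulk1OV and WT values overlapped, and the log2 fold change was -0.40 ± 0.17 (edgeR adjusted p = 0.164). Bmp4 had 4.25, 5.70 and 2.95 CPM in 5xFAD;Ulk1OV and 4.68, 2.83 and 1.85 CPM in Ulk1OV. Against WT the Ulk1OV log2 fold change of Bmp4 was -0.94 ± 0.40 (edgeR adjusted p = 0.168), and -0.42 without WT replicate 1. Without WT replicate 3 Cnp stood at -0.18, Nkx6-2 at -0.24 and Cspg4 at -0.27, and without Ulk1OV replicate 3 Cspg4 stood at -0.24. The correction for GC content and length took Cnp to -0.23, Nkx6-2 to -0.09 and Cspg4 to -0.12. Cspg4 and Bmp4 are also expressed by cells of the vessel wall or meninges. In this comparison 9 of 12 fibroblast markers, 3 of 10 endothelial markers and 2 of 7 mural markers tested were called lower. Of all genes, 5.17% were called in either direction. A fold change above 0 was seen in 1 fibroblast, 1 endothelial and 2 mural markers. The part of these cells was not tested.

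In 5xFAD;Ulk1OV against Ulk1OV, 0 of 27 mature and 0 of 7 precursor members passed, where 6.1% of all genes did (1051 genes, and 1579 without 5xFAD;Ulk1OV replicate 3). At an unadjusted p under 0.05 there were 2 mature and 0 precursor members (24.8% of all genes). The groups did not overlap in 6 mature members (5 higher and 1 lower in 5xFAD;Ulk1OV) and in 0 precursor members (27.6% of all genes). Mature members were higher in 17 and lower in 10, with a median log2 fold change of 0.08, and of -0.05 without 5xFAD;Ulk1OV replicate 3. The precursor median was 0.00, and -0.04 without that library.

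Qdpr, which recycles the cofactor tetrahydrobiopterin, had the smallest p. It had 217.9, 226.7 and 249.8 CPM in 5xFAD;Ulk1OV, 157.0, 218.0 and 241.0 CPM in 5xFAD, 146.5, 201.7 and 176.0 CPM in Ulk1OV and 202.9, 174.0 and 222.4 CPM in WT. All double-labelled values were above all Ulk1OV values, with a log2 fold change of 0.41 ± 0.15 (edgeR adjusted p = 0.121), and 0.36 without 5xFAD;Ulk1OV replicate 3 (adjusted p = 0.197). Nkx6-2 was likewise higher in every double-labelled library than in any Ulk1OV library. Its log2 fold change was 0.66 ± 0.28 (edgeR adjusted p = 0.158), or 0.58 without 5xFAD;Ulk1OV replicate 3, and 0.20 after the correction for GC content and length. Trf went the other way, each double-labelled value being below each Ulk1OV value, with a log2 fold change of -0.55 ± 0.26 (edgeR adjusted p = 0.219), or -0.65 without that library. Cspg4 (log2 fold change 0.25 ± 0.17, edgeR adjusted p = 0.392) and Pdgfra (-0.13 ± 0.11, adjusted p = 0.502) overlapped between these groups; without 5xFAD;Ulk1OV replicate 3 the values were 0.34 and -0.09. Cspg4 was at 0.08 without Ulk1OV replicate 3 and at 0.41 without Ulk1OV replicate 2, and its sign turned to -0.03 after the correction for GC content and length.

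**Figure D5:**
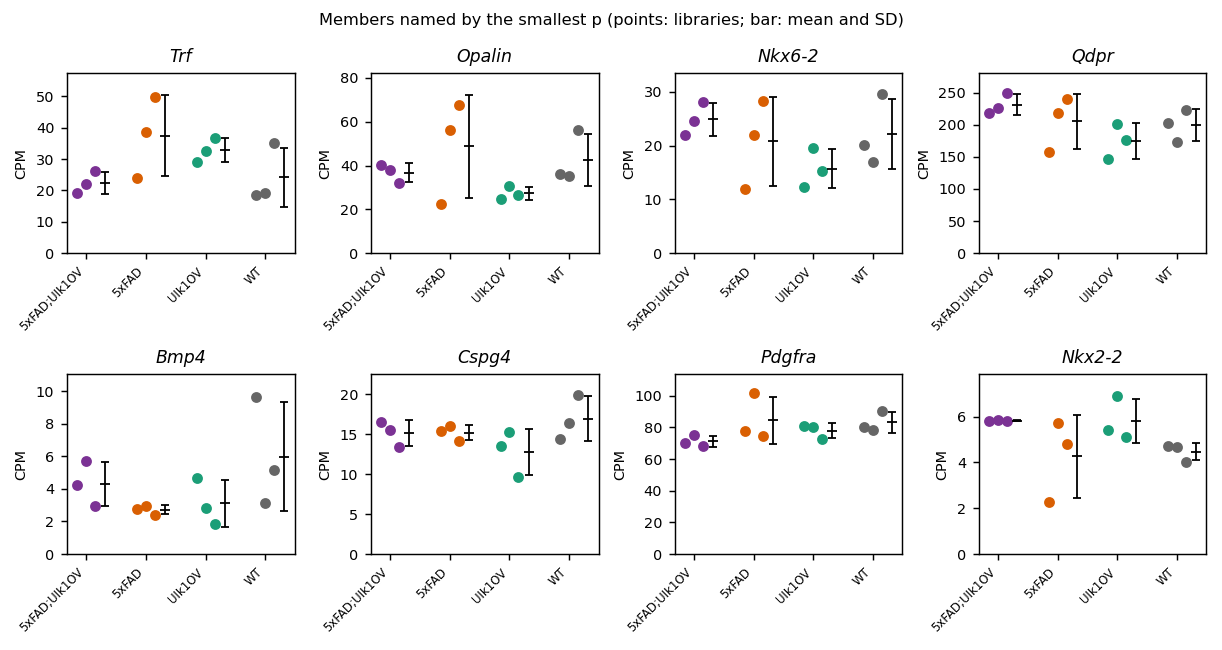
CPM in each library (points) with the mean and SD of each group (bars) for 8 members with small p-values, with axes from 0. Trf is lower in 5xFAD;Ulk1OV than in Ulk1OV without overlap, Opalin lower in Ulk1OV than in WT, and Bmp4 lower in 5xFAD than in WT, with WT replicate 1 at 9.64 CPM.

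The interaction asked whether the difference of 5xFAD;Ulk1OV from 5xFAD was the same as that of Ulk1OV from WT; a negative value means that the first was the lower. It called 0 of 27 mature and 0 of 7 precursor members, where 12.8% of all genes passed (2197 genes, and 2539 without 5xFAD;Ulk1OV replicate 3), and 1 mature and 1 precursor member lay at an unadjusted p under 0.05 (29.4% of all genes). The median was -0.04 over mature members and 0.07 over precursor members, and -0.15 and 0.00 without 5xFAD;Ulk1OV replicate 3. Without WT replicate 3 the mature median was -0.36, and without 5xFAD replicate 3 it was 0.14.

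Trf came closest to the threshold. Its level was lower in 5xFAD;Ulk1OV than in 5xFAD, while it averaged 32.8 ± 3.86 CPM in Ulk1OV and 24.2 ± 9.42 CPM in WT (SD, n = 3 each). The interaction was -1.17 ± 0.37 on the log2 scale (edgeR adjusted p = 0.0550). It ranged from -1.54 to -0.91 as single libraries were left out, and passed without 5xFAD replicate 1 (-1.39, adjusted p = 0.0157) and without WT replicate 3 (-1.54, adjusted p = 0.0147). It also passed in DESeq2 (adjusted p = 0.0151) and after the correction for GC content and length (-1.34, edgeR adjusted p = 0.0493). Without 5xFAD;Ulk1OV replicate 3 it was -1.27 (edgeR adjusted p = 0.0526). The call of Trf thus depended on the tool and on single libraries, while its sign did not change in any alternative run.

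Bmp4 had an interaction of 1.60 ± 0.57 (edgeR adjusted p = 0.0810), from 1.08 without WT replicate 1 to 2.01 without Ulk1OV replicate 1, where it passed (adjusted p = 0.0466). It passed as well without WT replicate 2 (1.91, adjusted p = 0.0464) and in DESeq2 (adjusted p = 0.0357), but not without 5xFAD;Ulk1OV replicate 3 (1.84, edgeR adjusted p = 0.0512). The fibroblast markers moved in the same direction, 9 of 12 of them passing with a median interaction of 2.89. Nkx6-2 had an interaction of 0.76 ± 0.39 (edgeR adjusted p = 0.215) and Cspg4 of 0.40 ± 0.24 (adjusted p = 0.288). Without that library they were 0.68 and 0.51, without WT replicate 3 they were 0.49 and 0.27, and after the correction for GC content and length 0.04 and -0.03. Ermn, a cytoskeletal protein of late oligodendrocytes, had 99.4, 109.1 and 177.9 CPM in 5xFAD;Ulk1OV, 88.8, 206.7 and 201.7 CPM in 5xFAD, 159.4, 165.3 and 198.3 CPM in Ulk1OV and 122.1, 109.0 and 163.6 CPM in WT. All 4 groups overlapped in part, and the interaction of Ermn was -0.77 ± 0.40 (edgeR adjusted p = 0.218). Without 5xFAD replicate 1 Ermn passed the test (-1.05, adjusted p = 0.0324), and without 5xFAD;Ulk1OV replicate 3 it was -1.05 as well and did not pass (adjusted p = 0.0838).

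The remaining members are given by role. Among the structural genes not yet described, Mog, on the outermost myelin layer, Mag, an adhesion protein facing the axon, Cldn11, Mal, Mobp, Mbp and Gjb1, a gap junction protein, had log2 fold changes between -0.35 and 0.32 in the 4 comparisons. Fa2h, which hydroxylates myelin fatty acids, and Car2 lay between -0.32 and 0.24. Myrf, Sox10 and Olig1 stayed between -0.24 and 0.20. Of the secreted and receptor proteins, Apod, a lipid-binding lipocalin, Gsn, an actin-severing protein, Gpr37, a receptor of differentiating oligodendrocytes, and Klk6 had fold changes between -0.34 and 0.38. Apod and Gsn are also expressed by fibroblasts and vessel cells. Among precursor members, Bcas1 lay between -0.02 and 0.15 and Neu4 between -0.10 and 0.29.

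Other genes of the lineage, outside the 34, were tested for comparison. Of 31 other mature genes, 22 other precursor and committed-cell genes, 16 genes of myelin lipid synthesis, 21 lineage regulators and 9 genes raised in disease-associated oligodendrocytes, all of which were tested, none passed in 5xFAD against WT or in 5xFAD;Ulk1OV against 5xFAD. The other mature genes had median log2 fold changes of 0.06 in 5xFAD against WT, -0.10 in 5xFAD;Ulk1OV against 5xFAD, -0.09 in Ulk1OV against WT and -0.03 in 5xFAD;Ulk1OV against Ulk1OV. These other mature genes also summed lowest in 5xFAD replicate 1, at 1933 CPM, and highest in WT replicate 3, at 4804 CPM, where Enpp2, which the choroid plexus also makes, accounted for 2148 CPM.

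In Ulk1OV against WT, 5 of these 99 genes passed, or 5.05%, a share near the 5.17% of all genes. Arsa, the lysosomal sulfatase that degrades the myelin lipid sulfatide, had 26.96, 25.7 and 23.7 CPM in Ulk1OV and 32.3, 37.2 and 33.9 CPM in WT; it fell by 0.44 ± 0.09 on the log2 scale (edgeR adjusted p = 0.0287). Hdac2, a histone deacetylase in the list of lineage regulators, rose by 0.33 ± 0.07 (edgeR adjusted p = 0.0287), with 93.4, 93.4 and 103.4 CPM in Ulk1OV and 75.6, 78.3 and 77.6 CPM in WT. Smad7, an inhibitor of BMP and TGF-beta signalling, fell by 0.56 ± 0.15 (edgeR adjusted p = 0.0481). H2-D1, a class I histocompatibility gene, fell by 0.56 ± 0.12 (adjusted p = 0.0287) and Serpina3n, a secreted protease inhibitor that astrocytes also make, rose by 0.46 ± 0.12 (edgeR adjusted p = 0.0443). In all 5 genes the groups did not overlap, as in 29.5% of all genes. The 5 were named because they passed the test on these same values, so this is not a separate result. The values of these genes ranged over -0.48 to -0.38 (Arsa), 0.28 to 0.35 (Hdac2), -0.66 to -0.40 (Smad7), -0.68 to -0.43 (H2-D1) and 0.34 to 0.58 (Serpina3n) as single libraries were left out. All 5 calls ended without Ulk1OV replicate 3, WT replicate 1 or WT replicate 2, when edgeR called 0 genes of the whole table. Of 18 alternatives, the call ended in 5 for Arsa, 6 for Hdac2, 11 for Smad7, 4 for H2-D1 and 10 for Serpina3n.

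In 5xFAD;Ulk1OV against Ulk1OV, 3 of the 99 passed, all higher, or 3.03% against 6.1% of all genes. Arsa rose by 0.40 ± 0.09 (edgeR adjusted p = 0.0299), Smad7 by 0.57 ± 0.15 (edgeR adjusted p = 0.0411; 0.46 and 0.0792 without 5xFAD;Ulk1OV replicate 3) and H2-D1 by 0.66 ± 0.12 (adjusted p = 0.0160). All 3 calls ended without 5xFAD;Ulk1OV replicate 1 or 2 or Ulk1OV replicate 3, when edgeR again called 0 genes. Values ranged over 0.35 to 0.44 (Arsa), 0.46 to 0.64 (Smad7) and 0.52 to 0.78 (H2-D1) as single libraries were left out. Of 18 alternatives, the call ended in 5 for Arsa, 9 for Smad7 and 3 for H2-D1. This comparison and that of Ulk1OV against WT share the Ulk1OV libraries, so opposite signs in them are not separate results. The correction for GC content and length ended the calls of Arsa and Smad7 in both comparisons and those of Hdac2 (0.20) and H2-D1 (-0.41) in Ulk1OV against WT, while Serpina3n in Ulk1OV against WT (0.51, edgeR adjusted p = 0.0478) and H2-D1 in 5xFAD;Ulk1OV against Ulk1OV (0.48, adjusted p = 0.0403) still passed.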

How the data were processed

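RNA was measured in 12 mouse hippocampus libraries, 3 per group as labelled. The authors deposited raw read counts per gene, without normalization. FastQC, Trim Galore, HISAT2, SAMtools, featureCounts, DESeq2 and mm10 appear in the submitters' processing notes with no version. The sources used here do not give the annotation or the use of strand, which leaves counts of overlapping genes uncertain. Reads below Q20 were removed, per the labels' protocols. The deposited counts per library and their range are given above; molecular identifiers were not used here.

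From the counts, edgeR 4.0.16 (R 4.3.3) was run on the 17227 genes that passed its default filter. It scaled libraries by TMM and fitted a quasi-likelihood model with 1 mean per group to all 12 libraries. Contrasts gave 4 comparisons and the interaction. A gene was called at a Benjamini-Hochberg adjusted p under 0.05 over all 17227 genes. An SE was obtained by dividing the log2 fold change by the root of the F statistic. Log2 CPM used a prior count of 2. Positions, exon lengths and GC content come from GENCODE M21 on GRCm38. Alternatives were the tool DESeq2 1.42.0, its size factors in edgeR, all genes kept regardless of count, a replicate block, a loess correction for GC content and length (span 0.4, 99.3% of tested genes with values, all 34 members among them), only the 6 libraries compared, and each library left out. The fit was tested on simulated counts.

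The members and the 16 gene lists were chosen with earlier results of these data known. By the naming rule, values in every library are given for the 3 mature and 2 precursor members with the smallest p in each comparison, and up to 4 called genes of each other oligodendrocyte list are named. Lists of other cell types are given by counts. In the lists of other mature and Schwann cell genes, 1 gene each is not reported here and is left out of the counts, medians and sums, but not of the fit. Mbp, Prnp, Ttr, Enpp2 and the neuron and Schwann cell genes were named after their values were seen. Counts of replicates differed beyond sampling noise (chi-square over degrees of freedom from 7.26 to 30.3).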

Additional observations from a re-analysis of the deposited data

Results flagged for a closer look

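In 12 of 99 oligodendrocyte genes outside the 34 members (12.1%), the difference of 5xFAD;Ulk1OV from 5xFAD differed from that of Ulk1OV from WT in edgeR's test of the interaction (adjusted p under 0.05 over all genes, where 12.8% of all genes passed). Positive values mean that the double-labelled libraries were higher against 5xFAD than Ulk1OV was against WT.

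Among other mature genes, St18, a zinc finger transcription factor, had an interaction of -0.765 on the log2 scale. Its call ended in 12 of 17 alternatives. Among other precursor and committed-cell genes, Matn4 had 0.798 and C1ql1 0.878, and the calls ended in 8 and 9 alternatives.

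In myelin lipid synthesis Arsa had 0.732 and Degs1, the desaturase that makes ceramide, -0.492, their calls ending in 1 and 9 alternatives. Among lineage regulators the values were -0.43 for Hdac2, 0.87 for Smad7, -0.589 for Zeb2, a repressor of BMP signalling, and -0.483 for Bmpr1a, a BMP receptor, with calls ending in 4, 2, 10 and 10 alternatives. Among disease-associated genes H2-D1 had 0.755, Serpina3n -0.711 and H2-K1 0.738, with calls ending in 1, 1 and 8 alternatives. The correction for GC content and length ended the call in 11 of the 12 genes, all but Serpina3n (-0.87). It moved C1ql1 to 0.11, Bmpr1a to -0.16, Zeb2 to -0.21, Hdac2 to -0.20, Arsa to 0.39, Smad7 to 0.50, H2-D1 to 0.43, H2-K1 to 0.48 and St18 to -0.47, while Matn4 at 0.72 and Degs1 at -0.41 stayed closer to their values.

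Without 5xFAD;Ulk1OV replicate 3 the calls of St18 (-0.69) and Zeb2 (-0.53) ended and the other 10 genes still passed, with 0.71 for Matn4, 0.94 for C1ql1, 0.75 for Arsa, -0.49 for Degs1, -0.40 for Hdac2, 0.78 for Smad7, -0.52 for Bmpr1a, 0.83 for H2-D1, -0.65 for Serpina3n and 0.85 for H2-K1.

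Each of the 12 kept its sign in all 17 alternatives. Fibroblast markers (9 of 12 called, median 2.89) and endothelial markers (4 of 10 called, median 0.75) also differed in the interaction, and their part in these genes was not tested.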

How the results depend on the processing

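Counts of called members were the same in 161 of 178 combinations of count, comparison and alternative. In many of these the count was fixed in advance at 0 members, because edgeR called 0 genes of the whole table. That held in 13 of 18 alternatives of 5xFAD against WT. It also held in some runs of each other comparison, but in none of the interaction. Without the filter on low counts edgeR called 1 mature (Trf) and 1 precursor member (Bmp4) in 5xFAD against WT, 5 mature members in 5xFAD;Ulk1OV against 5xFAD, 7 mature and 1 precursor member in Ulk1OV against WT, 7 mature members in 5xFAD;Ulk1OV against Ulk1OV, and 6 mature and 1 precursor member in the interaction. In that fit the prior degrees of freedom of the quasi-likelihood spread became infinite, against 5.48 with the filter, so that every gene was tested with the shared spread. In the interaction DESeq2 called 1 mature (Trf) and 1 precursor member (Bmp4), and correcting for GC content and length left 1 mature member called (Trf). With single libraries left out, the number of mature members called ranged from 0 to 1 in Ulk1OV against WT (Opalin) and from 0 to 2 in the interaction (Trf and Ermn), and of precursor members from 0 to 1 in the interaction (Bmp4). Cspg4 reversed its sign after the correction for GC content and length, to -0.025 in 5xFAD;Ulk1OV against Ulk1OV and to -0.033 in the interaction; the cause was not tested.

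The replicate block also called 1 mature member (Trf, adjusted p = 0.00942) in the interaction and moved no other count of members. Deviations of same-numbered libraries correlated between -0.18 and 0.22, over 0.1 in 4 of 18 pairs, and 5 of 12 libraries were most like one of their own number. With 3 libraries per group these values cannot decide whether the numbers pair the samples.

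Over all genes, counts moved more: the 0, 8, 891, 1051 and 2197 calls of the 4 comparisons and the interaction became 139, 721, 1819, 1993 and 2849 in DESeq2, 551, 901, 2079, 2097 and 2837 without the filter, and 0, 0, 508, 398 and 890 after the correction for GC content and length. The depth allowed all 34 members to be tested; Klk6, Bmp4 and Nkx2-2, with at most 63, 164 and 117 counts in a library, have the least precise values.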
